A study of Mus musculus with 2 samples.

Results

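The autosomal Gata genes, Gata2, Gata3, Gata4, Gata5 and Gata6, were chosen by name from a RefSeq gene table of mm10, and all 5 were found among its 21631 protein-coding records on chromosomes 1 to 19 and X. For each gene, the chromatin loops taken were those with an anchor at an end of the gene record, those enclosing the record, and those with an anchor within 500 kb of it. A loop is a pair of genomic intervals, the anchors, that the authors' caller found in closer contact than their surroundings. This gave 25 distinct loops out of 4982. The loops came from Micro-C, a form of Hi-C that cuts crosslinked chromatin with micrococcal nuclease. The cells were V6.5 male mouse embryonic stem cells (mESCs, a pluripotent line) in 1 group of 2 samples, both transfected with 50 nM of the control siRNA reagent siGLO and collected after 48 hours. The 2 samples were represented by 1 loop list with no values per sample. The spread between replicates was therefore not measurable, the read depth is unknown, no test over samples was possible, and every value below describes that list. RNA was not measured, so neither the identity of the cells nor the activity of the Gata genes could be checked here.

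GATA factors are zinc finger proteins that bind the DNA word GATA and switch on genes of particular lineages. Gata2 acts in blood stem cells and trophoblast, Gata3 in T cells, kidney and trophoblast. Gata4, Gata5 and Gata6 act in heart and endoderm, and raising Gata4 or Gata6 in mESCs turns these cells into primitive endoderm, the lineage of the yolk sac. In pluripotent cells most of these genes are kept silent under Polycomb marks, and their known enhancers in other tissues can lie far from the gene. Loops of this kind are commonly formed by cohesin, a ring complex that extrudes DNA until CTCF, a DNA-binding protein, halts it.

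Start sites were listed in the RefSeq promoter table (GRCm38.p6) for 3 of the 5 genes, Gata2, Gata3 and Gata5. The 250 bases before the starts of Gata2 and Gata3 are shown because these are the members with a record end at a loop anchor. Both Gata2 stretches lie inside the anchor. The Gata3 stretch lies outside it: the listed start is 1.40 kb from the anchor and 9.35 kb from the record end in the anchor. Capitals mark CCCTC, a short word found within the CTCF motif, or its complement GAGGG. Both starts of Gata2 (plus strand) and the start of Gata3 (minus strand, written 5′ to 3′ on that strand) are given.
Gata2 first start, chr6:88193641-88193890: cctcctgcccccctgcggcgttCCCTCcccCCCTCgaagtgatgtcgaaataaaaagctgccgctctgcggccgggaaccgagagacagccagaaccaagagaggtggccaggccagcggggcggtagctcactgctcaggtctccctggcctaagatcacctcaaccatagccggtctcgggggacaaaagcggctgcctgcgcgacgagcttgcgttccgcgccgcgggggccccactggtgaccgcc
Gata2 second start, chr6:88198414-88198663: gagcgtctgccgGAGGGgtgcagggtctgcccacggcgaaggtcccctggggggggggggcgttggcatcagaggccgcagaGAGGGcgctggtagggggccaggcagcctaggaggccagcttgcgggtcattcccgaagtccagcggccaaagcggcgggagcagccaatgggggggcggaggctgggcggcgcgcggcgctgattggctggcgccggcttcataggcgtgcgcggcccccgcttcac
Gata3 start, chr2:9878601-9878850: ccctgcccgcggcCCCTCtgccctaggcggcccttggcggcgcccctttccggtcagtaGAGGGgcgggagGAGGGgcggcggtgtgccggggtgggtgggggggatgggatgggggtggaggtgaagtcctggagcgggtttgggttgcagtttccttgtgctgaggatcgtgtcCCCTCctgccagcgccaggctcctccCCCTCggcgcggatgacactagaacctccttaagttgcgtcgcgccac
CCCTC was present on either strand 2 times before each Gata2 start, 5 times before Gata3 and 3 times before Gata5. Of all 32851 promoters of the table, 60.6% held it at least once. How many held it as often as these stretches was not counted. GC content of the stretches ran from 67.2% to 74.0%, against a median of 52.4% over all promoters, and the word itself is rich in C. GATAA, the core of the word that GATA factors bind, was in none of these 4 stretches on either strand, and 22.6% of all promoters held it. The stretches were rich in CpG, with 22 and 24 CpG before the Gata2 starts, 19 before Gata3 and 22 before Gata5, against a median of 6 and an upper quartile of 16 over all promoters. A match is a description of the letters and not a bound site.

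The 5 genes took different positions in the loop map. Gata2 and Gata3 had an end of their record inside an anchor, Gata4 had anchors inside its record, Gata5 lay between the anchors of a short loop, and Gata6 had no loop touching or enclosing it. An end at an anchor was thus found for 2 of 5 members, and 9.04% of all protein-coding genes had one. Any part of the record lay in an anchor for 3 of 5 members (17.7% of all genes), and 3 of 5 were enclosed by at least 1 loop (32.6% of all genes). All 5 had an anchor within 500 kb, as did 87.4% of all genes. With 5 members picked with earlier results of this list known, these shares are descriptions.

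**Figure D1:**
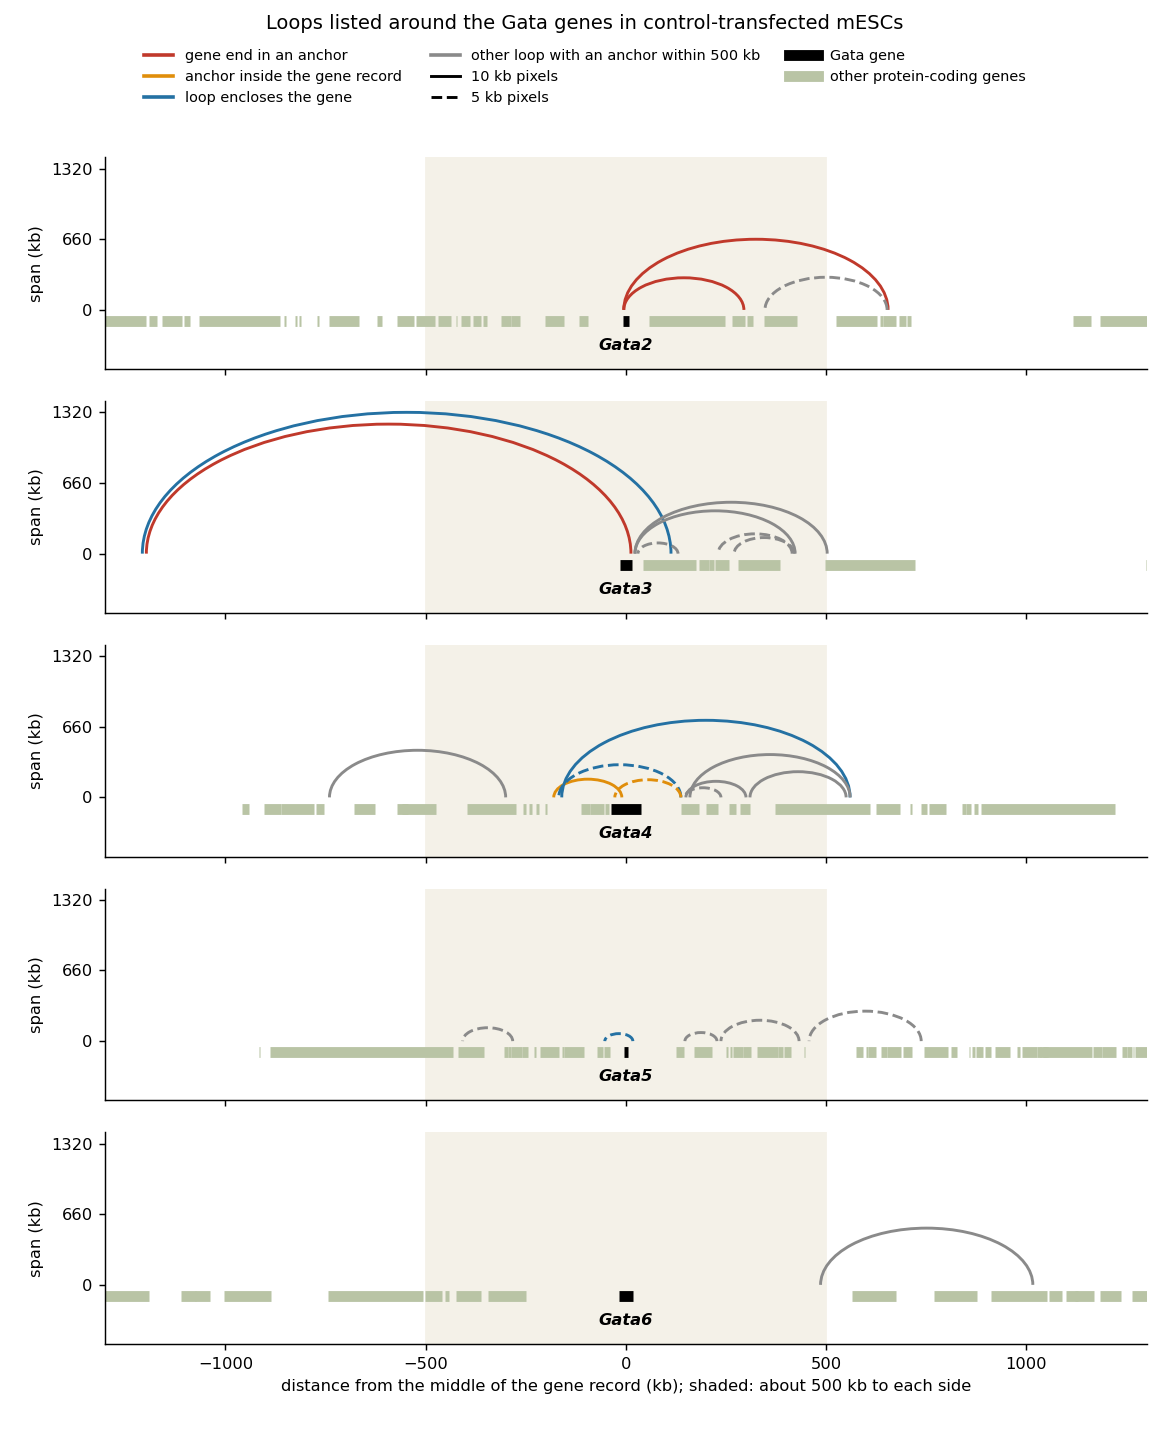
Loops around each Gata gene, drawn as arcs over the distance from the middle of the gene record (kb), with arc height equal to the span between anchor midpoints (kb); colour gives the relation to the gene, solid arcs are of 10 kb pixels and dashed arcs of 5 kb pixels. The loops at Gata2 reach toward higher coordinates, the 1210 kb and 1320 kb loops of Gata3 toward lower ones, and no arc covers Gata6. Gata2 is on the plus strand and Gata3 on the minus strand, so loops from the record end of either gene run in its direction of transcription.

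Gata2, a regulator of blood stem cells, had 2 loops from its own end, against 1 for Gata3. This order turned when anchors were widened by 5 kb or 10 kb, which gave Gata3 3 loops and left Gata2 at 2. Its record (chromosome 6, 88193891 to 88207032) began inside an anchor of 10 kb pixels (88190001 to 88200000), and both of its listed start sites, 88193891 and 88198664, lay in that anchor. A listed start lay in an anchor for 5.2% of the 17274 protein-coding genes with a start in the promoter table. Of all protein-coding genes, 1.14% had ends at anchors of 2 or more loops, as Gata2 did. An end of the long non-coding RNA gene Gm38708 shared the anchor.

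Both loops of Gata2 ran toward higher coordinates, the direction in which the gene is transcribed. The shorter spanned 300.0 kb to an anchor (88490001 to 88500000) with ends of Ruvbl1, an ATPase of chromatin remodelling complexes, and of the predicted gene Gm46965. It had a peak score of 4.03. This score is the caller's own and has no unit, and percentiles below are among loops of the same pixel size. The longer loop spanned 660 kb to an anchor (88850001 to 88860000) inside the record of Podxl2, a cell surface protein, with a score of 4.06. Both scores sat at the middle of the 10 kb loops, at percentiles 51.8 and 53.2. The deposited value of the peak pixel separated them more, with 7.43 for the shorter (percentile 66.2) and 5.24 for the longer (13.4). Between the anchors of the shorter loop lay 2 protein-coding genes, Dnajb8 and Eefsec, a translation factor for selenoproteins. Between those of the longer lay 8, including Sec61a1, a channel of the endoplasmic reticulum, and Mgll, a lipase.

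The far anchor of the longer Gata2 loop was shared. A loop of 5 kb pixels joined the low end of the Kbtbd12 record (88545001 to 88550000) to 88850001 to 88855000 over 305 kb, with a score of 5.25 (percentile 61.3). The 3 loops formed 1 connected chain through overlapping anchors. On the other side of Gata2 lies Rpn1, a subunit of the oligosaccharyl transferase, 88.6 kb away. The stretch between them holds a distal enhancer of Gata2 in blood progenitors. No loop of the list with an anchor within 500 kb of Gata2 had an anchor at lower coordinates than the gene's own anchor, and the anchor nearest to the Rpn1 record, 84.7 kb away, was that of Gata2 itself.

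Gata3, a regulator of T cells and kidney, had loops of high score that reached far into a gene desert. Its record (chromosome 2, 9857078 to 9887953) ended inside an anchor (9880001 to 9890000) of a loop that spanned 1210 kb toward lower coordinates (8670001 to 8680000). Gata3 is on the minus strand, so this loop, like both from the end of Gata2, ran in the direction of transcription. The peak score was 6.27 (percentile 94.4) and the peak pixel 9.99 (percentile 94.3). The far anchor held no end of a protein-coding gene or of a long non-coding RNA gene, and no protein-coding record lay wholly between the anchors. The next protein-coding record at lower coordinates, Celf2, an RNA-binding protein, was 2461 kb from Gata3. The listed start site of Gata3 (9878600) was not itself in the anchor but 1.40 kb outside it. The record end in the anchor was the upstream end of the gene record, 9.35 kb from that start. The anchor covered the side upstream of that start, where ends of the long non-coding RNA genes 4930412O13Rik and 9230102O04Rik also lay.

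A second long loop enclosed Gata3 and left the desert from the adjoining bin. It ran from 8660001 to 8670000 to an anchor (9980001 to 9990000) within Taf3, a subunit of the general transcription factor TFIID, and spanned 1320 kb. Its score was 5.63 (percentile 89.96) and its peak pixel 9.04 (88.1). Gata3 was the 1 protein-coding gene that lay wholly between its anchors, at 91.5% of the way from the low to the high anchor. These were the longest loops around any member, and both exceeded the upper quartile of 560 kb among 10 kb loops.

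The other 5 loops near Gata3 ran to the opposite side, over the genes that follow it. From the bin next to the Gata3 anchor (9890001 to 9900000), 2.05 kb beyond the record, 2 loops of 10 kb pixels reached 400 kb and 480 kb toward higher coordinates. The longer ended at Sfmbt2 (10370001 to 10380000), a Polycomb group gene imprinted in the early embryo, with a score of 4.71 (percentile 76.2). The shorter ended at an intergenic site (10290001 to 10300000) with a score of 3.50 (24.9). Their peak pixels were low, at percentiles 14.3 and 2.23. A loop of 100 kb from 9900001 to 9905000 into Taf3 had one of the lowest scores, 3.28, at percentile 1.5 of the 5 kb loops. By contrast, a loop of 185 kb from within Itih2, a serum protein that binds hyaluronan, to 10285001 to 10290000 had the highest score of all 25 loops, 8.38 (percentile 96.4). A loop of 150 kb ended next to it at 10290001 to 10295000 with a score of 3.95 (17.5). The 10 kb bins on either side of 9890000 thus carried loops in opposite directions, lower from the Gata3 anchor and higher from its neighbour.

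Gata4, a regulator of heart and endoderm, had the most loops nearby when all were counted. With 9 loops having an anchor within 500 kb, it exceeded the median of 3 and the upper quartile of 5 over all protein-coding genes, and 2.23% of genes had as many or more. Of these loops 3 were at or above the median score of their pixel size, fewer than the 4 near Gata3 and as many as near Gata2. Its record (chromosome 14, 63198914 to 63271712) is also the longest of the members, at 72.8 kb. Neither end of it lay in an anchor, but 2 anchors lay inside it. One (63205001 to 63210000) began 6.09 kb from the low end and was joined over 165 kb to 63370001 to 63375000, where the record of Blk, a tyrosine kinase of B cells, has an end. This loop scored 6.03 (percentile 78.9). The other (63220001 to 63230000) began 21.1 kb from the low end and was joined over 170 kb in the opposite direction, to 63050001 to 63060000, with a score of 2.82 (percentile 1.54).

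Gata4 was also enclosed by 2 loops, as were 11.9% of all genes at least that often. The smaller spanned 305 kb from 63065001 to 63070000 to the same Blk anchor, with Gata4 at 55.0% of the way, and scored 6.83 (percentile 88.9). It held 3 other protein-coding genes, Ctsb, a lysosomal protease, Fdft1, the squalene synthase, and Neil2, a DNA repair enzyme that lies 4.76 kb from Gata4. The larger spanned 720 kb from 63070001 to 63080000 into Xkr6 (63790001 to 63800000), held 7 other genes, and scored 3.18 (10.8). Low and high scores thus lay close together. The 5 kb loops that touch or enclose Gata4 scored above the upper quartile of their pixel size (5.79), and the 10 kb loops that do so scored below the lower quartile of theirs (3.50). The genes whose enclosing loops were most like those of Gata4 were Neil2, Fdft1 and Ctsb, each with a Jaccard index of 0.667 (2 shared loops of 3) over this list.

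Of the remaining loops near Gata4, 4 lay on the side of Blk and 1 on the other. From within Blk, loops of 90 kb and 150 kb left overlapping anchors at 63380001 with scores of 4.24 and 3.86. A loop of 400 kb reached the Xkr6 anchor (3.08), and one of 240 kb ran from the end of Mtmr9, a myotubularin-related protein, to the bin before it (4.48). The loops of 150 kb and 400 kb enclosed Tdh, the threonine dehydrogenase known for its high level in mESCs. On the other side, a loop of 440 kb within 500 kb of the gene ended in Wdfy2 with the lowest score of the 25, 2.71 (percentile 0.33 of the 10 kb loops).

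Gata5, a factor of endocardium and gut, lay inside the shortest of the 25 loops. Its record (chromosome 2, 180325088 to 180335503) was enclosed by a loop of 70 kb and 5 kb pixels, from 180275001 to 180280000 to 180345001 to 180350000. Among all 5 kb loops the lower quartile of span was 125 kb. Gata5 was the 1 protein-coding gene lying wholly between the anchors. One anchor held an end of Rbbp8nl, a relative of the DNA end resection factor Rbbp8, and the other an end of the long non-coding RNA gene Gm52543. The score was 5.07 (percentile 55.8) and the peak pixel 5.22 (59.6). The nearest anchor edge was 9.50 kb from the record and 10.3 kb from the start site at 180334679, so Gata5 fell near an anchor without an end in it.

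The other 4 loops near Gata5 were all of 5 kb pixels and shared no anchor with it or with each other. Of these, 1 at lower coordinates joined Taf4, another TFIID subunit, to Ss18l1, a chromatin remodelling subunit, over 125 kb with a score of 5.34. The 3 at higher coordinates spanned 80 kb, 195 kb and 280 kb and scored 3.27, 3.57 and 3.89, at percentiles 1.42, 5.22 and 15.9. None of these 3 had a protein-coding gene end at an anchor. At Gata5, 5 loops within 500 kb compare with 23 other protein-coding genes in that range, the most of any member.

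Gata6, a driver of primitive endoderm, had the emptiest surroundings. Its record (chromosome 18, 11052510 to 11085636) touched no anchor and was enclosed by no loop, as was the case for 55.6% of all genes. The single loop within range was of 10 kb pixels, began 464 kb away at 11550001 to 11560000 and ended within Tmem241 (12080001 to 12090000), a span of 530 kb. It scored 4.42 (percentile 67.1) and ran away from Gata6. This anchor was just inside the 500 kb limit. Just outside it, on the other side, an anchor within Greb1l, a gene of kidney development, ended 523 kb from Gata6 and belonged to a loop of 230 kb. The 2 anchors bounded a stretch of 1020 kb without anchors that held 5 protein-coding genes. Besides Gata6 these included Esco1, an acetyltransferase of cohesin, and Mib1, a ubiquitin ligase of Notch signalling. Of the 17360 genes with no part in an anchor and with anchors on both sides, 32.3% lay in a stretch at least as wide, and the median was 555 kb. The absence of a called loop at Gata6 says only that none was listed, since the depth and the caller's thresholds are unknown.

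**Figure D2:**
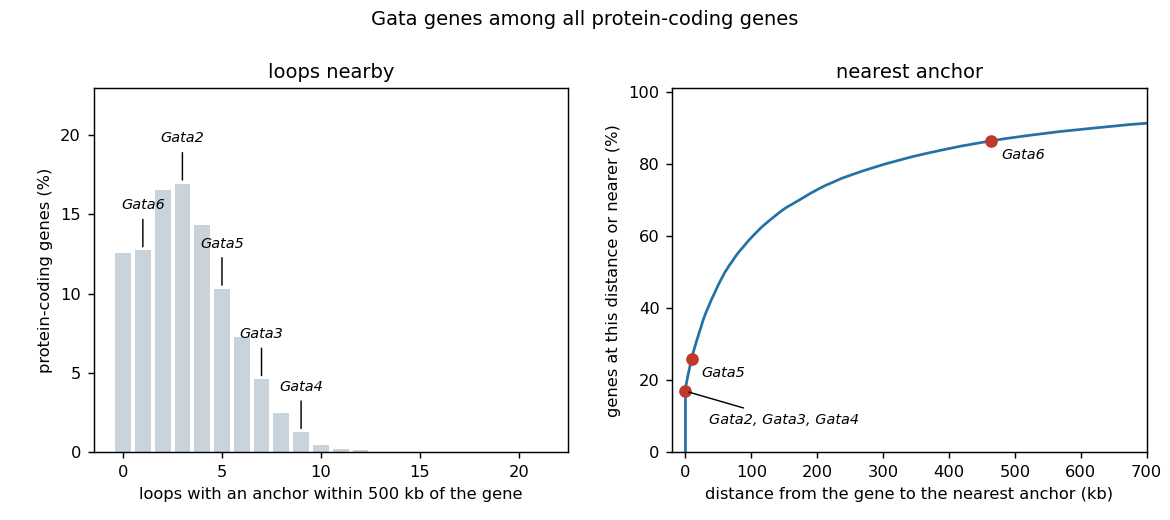
Left, bars give the percentage of protein-coding genes by their number of loops with an anchor within 500 kb, with the Gata genes marked. Right, the line gives the percentage of protein-coding genes whose nearest anchor is at the plotted distance (kb) or nearer; Gata2, Gata3 and Gata4 are at 0 kb, Gata5 is at 9.50 kb and Gata6 at 464 kb.

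Set in order, the number of loops with an anchor within 500 kb was 9 for Gata4, 7 for Gata3, 5 for Gata5, 3 for Gata2 and 1 for Gata6. As many or more were found at 2.23%, 9.33%, 26.9%, 58.2% and 87.4% of all genes, so the members had no common level. The order depended on the scores. Among loops at or above the median score of their pixel size, the counts were 4 for Gata3, 3 for Gata2, 3 for Gata4, 2 for Gata5 and 1 for Gata6. With no values per sample, no spread is known by which neighbours in this order could be told apart. The distance to the nearest anchor was 0 for Gata2, Gata3 and Gata4, against a median of 59.9 kb and a lower quartile of 8.09 kb over all genes. Gata5 was just above that quartile and Gata6 beyond the upper quartile of 224 kb.

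Peak scores around the members ran from 2.71 to 8.38 with a median of 4.06, against 4.16 over all loops, and 13 of 25 were above the median of their pixel size. None of the 25 was of 25 kb pixels, the size of 670 of all 4982 loops. Of the 25, 12 were of 5 kb (48.0%, against 25.4% of all loops) and 13 of 10 kb (52.0%, against 61.2%). Spans ran from 70 kb to 1320 kb with a median of 280 kb, against 325 kb over all loops. Span also goes with pixel size in this list, with medians of 190 kb, 330 kb and 650 kb at 5, 10 and 25 kb pixels. No called loop joined 2 Gata genes; Gata3 and Gata5 are on the same chromosome but far apart.

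**Figure D3:**
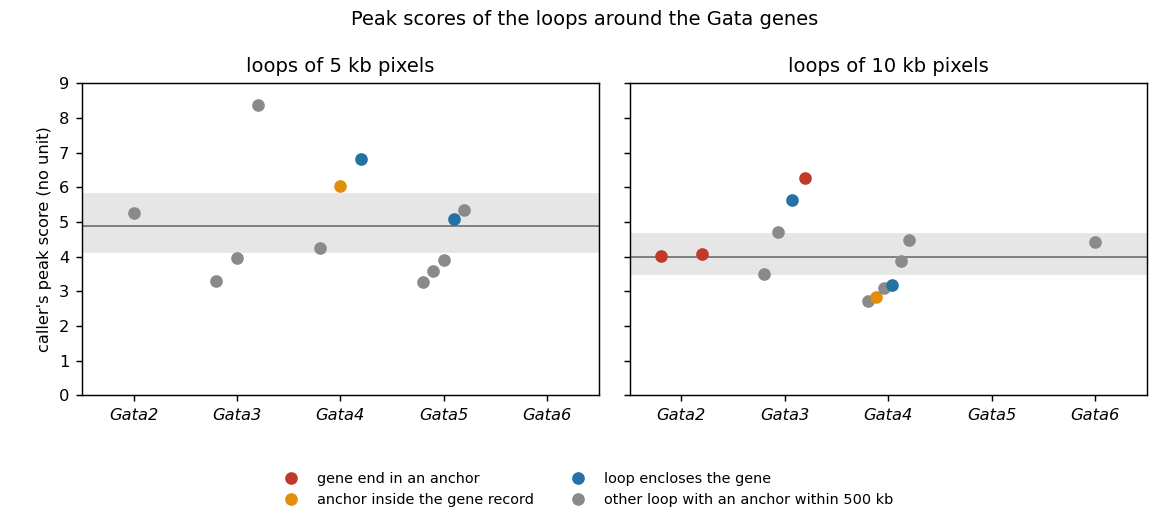
Peak score (no unit) of each of the 25 loops by Gata gene, for loops of 5 kb pixels (left) and 10 kb pixels (right); the line is the median and the grey band the quartiles of all loops of that pixel size. Loops at Gata2 ends sit on the 10 kb median, the 2 long loops of Gata3 lie above the band, and those of 10 kb pixels that touch or enclose Gata4 lie below it.

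Genes that act with GATA factors were described in the same way, from 4 lists of 31 genes in all. Of these, 9 had an end at an anchor (9.04% of all genes), 13 were enclosed by a loop (32.6%) and 29 had an anchor within 500 kb (87.4%). The lists were drawn up with some of these loops already known, so the counts are descriptions. Among trophoblast partners, 4 of 7 had an end at an anchor. These were Cdx2, the homeobox regulator of trophectoderm (625 kb loop, score 3.79), Eomes (445 kb, 7.15), Tfap2a (825 kb, 3.13) and Tfap2c (230 kb, 3.83). The Cdx2 and Tfap2a loops were of 25 kb pixels, a size that no loop near a member had. The Tfap2c loop was of 10 kb and the Eomes loop of 5 kb pixels, so these scores are not on a common footing. Among blood partners it was 3 of 10, Tal1 (880 kb, 8.71), its relative Lyl1 (110 kb, 5.64) and the myeloid factor Spi1 (80 kb, 3.66). Among endoderm and heart partners it was 2 of 10, the pioneer factor Foxa2 with 2 loops (680 kb, 8.28 and 860 kb, 10.1) and the heart factor Tbx5 (230 kb, 3.16). The loops of Lyl1 and Spi1 and the shorter of Foxa2 were of 5 kb pixels. Those of Tal1 and Tbx5 and the longer of Foxa2 were of 10 kb pixels. Of the cofactors and other GATA-type factors, Zfpm1, Zfpm2, Trps1 and the X-linked Gata1, 0 of 4 had an end at an anchor and 0 of 4 were enclosed. Zfpm2, however, had anchors of 2 loops inside its record, as Gata4 did, and 5 loops with an anchor within 500 kb. The anchor nearest to Gata1, the founding member of the family and a regulator of red blood cells, was 1039 kb away, farther than for any autosomal member. These male cells carry a single X chromosome, and genes of that chromosome were not described apart. Whether this bears on the distance was not tested.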

How the data were processed

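The data were 1 list of 4982 loops for the siControl group of 2 Micro-C samples. Build mm10 and Juicer 1.5.6 are named in the submitters' processing notes. Which caller and cut-offs made the loops, how the contact map was normalized and whether samples were pooled is not stated in any source used here. The deposited list has no header. Its score columns (peak score and regional peak score) and the deposited signal of the peak pixel were identified from values and column order. They served for description and ranking inside this list.

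Positions were made 1-based. Genes came from a RefSeq table of GRCm38.p6 (start and end, no strand), and start sites and strand from its promoter table. An end in an anchor needed 1 bp inside. Enclosed means the whole record lies between the inner anchor edges. Span runs between anchor midpoints. Anchors sharing at least 1 bp were merged. Counting was tested on simulated loops, using Python 3.11.15, numpy 2.4.6 and pandas 2.3.3, with plots in matplotlib 3.10.9. The members, gene lists and the rule for named genes were chosen with earlier results of these data known. The rule named the members, genes with an end at anchors of loops from member ends, nearest neighbours, genes sharing enclosing loops and list genes at anchors. Other genes at or between anchors (such as Podxl2, Itih2, Xkr6 and Esco1) were named after the map was seen. The planned comparison of zinc finger protein sequences was not run.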

Additional observations from a re-analysis of the deposited data

How the results depend on the processing

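No paired analysis was possible because both samples share a single loop list, which also prevented leaving out either replicate. Of 29 alternative values, 21 stayed the same or within 1.5 times and 8 moved further. The count of members with an end at an anchor, 2, became 4 with anchors widened by 10 kb, which added Gata4 and Gata5. It was 1 with listed start sites only, which are available for 3 members and left Gata2. The listed Gata3 start lies 1.40 kb outside the anchor, while the upstream end of the Gata3 record lies in it. The count was 0 with 5 kb or 25 kb pixels alone, since the anchors at both genes are of 10 kb pixels. The count of loops at member ends, 3, became 5 and 7 with anchors widened by 5 kb and 10 kb. With 5 kb the additions were the 2 loops from the bin beside Gata3, which then had more than Gata2. Members enclosed by a loop, 3, became 4 when counted within the outer edges of the anchors, which added Gata2. They became 2 with 5 kb or with 10 kb pixels alone. With 25 kb pixels alone the count was 0, which was fixed because no loop around a member was of that size. Loops within 500 kb of a member, 25, fell to 13 when only those at or above the median score of their pixel size were kept, and Gata4 went from 9 to 3, Gata3 from 7 to 4 and Gata5 from 5 to 2. Distances to the nearest anchor did not change in the alternatives run. Leaving out 25 kb pixels could not change them, since no loop within 500 kb of a member was of that size. Those distances are still counted among the 21. The other alternative, loops at or above the median score, could have moved them. Depth is unknown, so how many loops were missed is too.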

Other observations

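Gata5 and Gata6 lie among genes of the same families, seen after the gene table was examined, and the loop list differs between the 2 places. Near Gata5 are Rbbp8nl at 35.2 kb, Cables2, a cell cycle regulator, at 51.6 kb, and the muscle microRNA genes Mir1a-1 and Mir133a-2 at 53.5 kb and 62.9 kb. Near Gata6 are Rbbp8 at 548 kb, Cables1 at 754 kb, and Mir1a-2 and Mir133a-1 at 267 kb and 270 kb. The anchor at Rbbp8nl is an end of the loop over Gata5. Cables2 and the microRNA genes at both places had no end at an anchor and were enclosed by no loop. Rbbp8 and Cables1 were both enclosed by the loop that begins 464 kb from Gata6 and runs away from it. In this list Rbbp8 and Cables1 thus share a loop with each other but not with Gata6.

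Sox7, an endoderm factor on the partner list, is on the same chromosome as Gata4, at 63943706 to 63950732. It had no end at an anchor, was enclosed by 1 loop, and had 7 loops with an anchor within 500 kb.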
